A study of Mus musculus with 6 samples.

Results

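The genes described here encode lysosomal hydrolases, the small proteins that assist them, proteins of the lysosomal membrane, and the transcription factors Tfeb and Tfe3. They are a list of 30 genes chosen by name, with earlier results of these data already known. Of the 30 genes, 29 had a probe set annotated to that gene alone, among 18193 genes with such a probe set in all. Cd63 was not analysed here. Where a gene had several probe sets, the one with the highest mean over all 6 arrays represented it. All 29 represented genes lay above the filter on low values, which left 14680 genes for testing.

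Lysosomes are acidic organelles that break down glycolipids, glycoproteins, glycosaminoglycans, glycogen and proteins delivered by endocytosis, phagocytosis and autophagy. Most of their soluble enzymes reach them through mannose 6-phosphate tags, and a heavily glycosylated set of membrane proteins protects the limiting membrane and moves breakdown products out. TFEB and TFE3, basic helix-loop-helix factors held in the cytoplasm by TORC1 signalling, bind E-box sequences upstream of many lysosomal genes. In myeloid cells some secretory granules are lysosome-related organelles that hold the same kinds of protein.

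The cells were sorted mouse bone marrow cells with MLL-AF9, an oncogenic fusion found in acute leukaemia. In 3 samples, MLL-AF9/Mn1wt, the Mn1 gene was intact, and in the other 3, MLL-AF9/Mn1null, it had been deleted with CRISPR-Cas9, so the comparison asks which transcripts differ when this transcriptional cofactor is lost. Per the labels, cells of both groups had been transduced with an EGFP control vector and grown with the cytokines mIL3, hIL6 and mSCF, and no further treatment was given. The labels used here do not say whether replicates came from separate cultures or animals, or whether the Mn1null cells were a single clone. The p-values therefore rest on the spread among these samples alone, and that spread may be technical.

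Values are log2 RMA signals, so a difference of 1 is a 2-fold change, and levels are compared between groups within a probe set but not between probe sets. The array medians lay between 5.17 and 5.23, and arrays correlated at 0.997 to 0.998 within groups and at 0.968 to 0.969 between groups over the genes tested. The number of arrays limits the precision. Mn1 was read by 1 probe set near the filter level of 4.07, at 4.35 ± 0.20 in Mn1wt and 4.13 ± 0.071 in Mn1null (SD, n = 3 each), and was not called by limma (adjusted p = 0.121). The sources used here do not place that probe set relative to the deletion, so it does not check the labels. Among leukocyte and progenitor genes, Ptprc, Spn, Cd34, Laptm5 and Myb read between 10.96 and 13.35 in both groups, and Itgam, an integrin of myeloid cells, read 7.13 and 7.98. These levels were not equal between the groups. Of the 6 genes, limma called 5 higher in Mn1null and 0 lower (adjusted p under 0.05), beside 23.2% and 25.6% of all tested genes. Their median difference was 0.34. Cd34 rose by 0.79 and Itgam by 0.84, and Ptprc did not pass. The list's mean log2 level was 10.996 to 11.047 on Mn1wt arrays and 11.42 to 11.47 on Mn1null arrays. Laptm5 is also counted among the further lysosomal membrane proteins below.

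Lysosomal genes were mostly higher in Mn1null cells, by moderate amounts. Of the 29 genes, 19 rose, 3 fell and 7 did not pass at a threshold of 0.05 on limma's adjusted p. Of all tested genes, 23.2% rose and 25.6% fell, 48.8% in all. The median difference was 0.31 on the log2 scale, against -0.0053 over all genes tested, and single differences ran from -0.46 (Psap, the precursor of the saposins) to 1.98 (Gm2a, the GM2 ganglioside activator). A rise of at least 2-fold was reached by 6 of the 29 genes, compared with 3.77% of all tested genes, while 13 of the 22 called genes differed by less than 1.5-fold. For 19 genes the 3 Mn1null values all lay above the 3 Mn1wt values, and for 4 all lay below, where 27.6% and 30.1% of all tested genes did so. Averaged over the 29 genes, the log2 level was 9.40 to 9.45 on the Mn1wt arrays and 9.84 to 9.88 on the Mn1null arrays. As these are bulk RNA samples, more transcript per cell and more cells of a type rich in the transcript cannot be told apart.

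**Figure D1:**
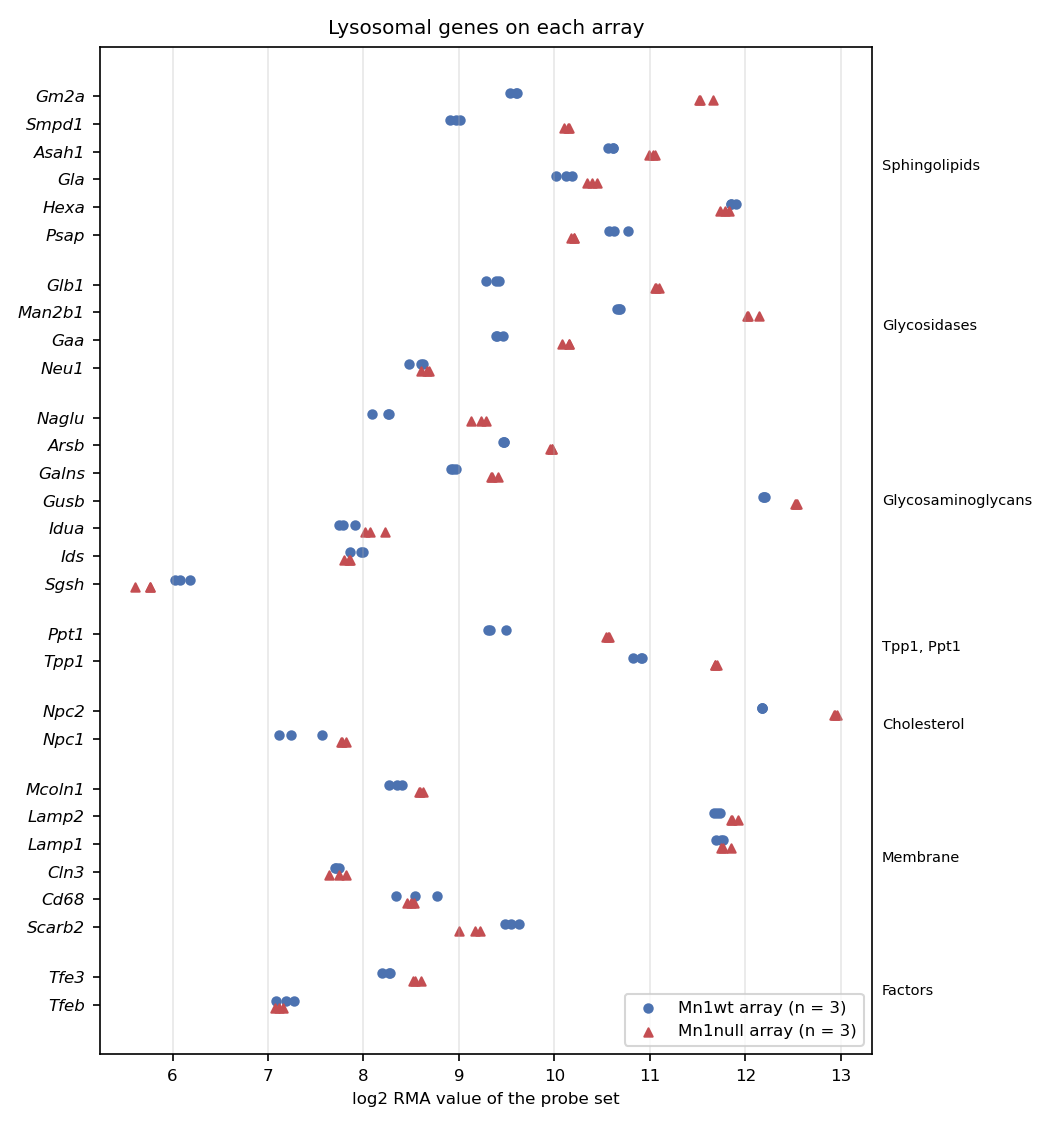
The log2 RMA value (horizontal axis) of the representative probe set of each of 29 lysosomal genes (vertical axis, grouped by role) on each Mn1wt array (circles, n = 3) and each Mn1null array (triangles, n = 3). The triangles lie to the right of all circles for 19 genes, with the widest gaps at Gm2a, Glb1 and Man2b1, and to the left for Hexa, Psap, Sgsh and Scarb2.

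Other properties of the same arrays moved with the groups. Spiked bacterial labelling controls were lower in Mn1null by 0.85 at their 5′ probe sets, by 0.49 at the middle ones and by 0.30 at the 3′ ones. Probe sets without overlap numbered 8 of 8, 6 of 8 and 6 of 8, and some read the same spiked transcript. Hybridisation controls differed by -0.09, with 4 of 18 not overlapping. Of all tested genes, 27.6% had the Mn1null values all above and 30.1% all below. For the marker counts that follow, 23.2% of all tested genes rose and 25.6% fell. Of 12 monocyte and macrophage markers tested, 8 fell and 2 rose. The mean log2 level of that list was 6.76 to 6.89 on Mn1wt arrays and 5.85 to 5.90 on Mn1null arrays. Of 10 mast cell and basophil markers tested, 6 rose and 1 fell, and the list's level was 6.970 to 7.005 in Mn1wt and 8.29 to 8.31 in Mn1null, with Mcpt4 under the filter level in both groups and Tpsb2, Tpsab1 and Cma1 at means of 4.22 to 5.07. All 4 eosinophil markers tested rose (list level 5.02 to 5.13 and 6.98 to 7.08), with Ccr3 under the filter level. Neutrophil markers (6 of 9 rose, 2 fell; 9.47 to 9.59 and 9.60 to 9.68), erythroid markers (4 of 5 rose; 6.27 to 6.39 and 7.17 to 7.21) and megakaryocyte markers (3 of 5 rose, 2 fell; 6.74 to 6.87 and 7.59 to 7.70) also differed. Of 7 stromal and endothelial markers tested, Pecam1, an adhesion molecule of endothelial and blood cells, rose by 1.78 (from 9.06 to 10.84) and Pdgfrb by 1.76, and the list level was 5.33 to 5.38 in Mn1wt and 5.72 in Mn1null, with Pdgfra under the filter level. Of 6 dendritic markers tested, Flt3 rose by 0.72 and Itgax by 0.44 (list level 4.996 to 5.19 and 5.21 to 5.26). Of 5 B cell markers tested, Vpreb1 rose by 0.81 and Cd79b fell by 0.91 (4.87 to 4.99 and 4.98 to 5.01), with Ms4a1 under the filter level. The 5 T and NK cell markers tested did not pass (5.08 to 5.17 and 5.08 to 5.19), and Cd3g lay under the filter level. The part of the labelling controls and of these markers in the lysosomal differences was not tested.

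Of the 2 transcription factor genes, Tfe3 rose and Tfeb did not pass. Tfeb read 7.19, 7.27 and 7.08 on the Mn1wt arrays and 7.16, 7.12 and 7.07 on the Mn1null arrays. These values overlap, and limma did not call the difference of -0.065 (95% interval -0.21 to 0.080; adjusted p = 0.431). Tfe3 read 8.26, 8.19 and 8.28 in Mn1wt and 8.51, 8.54 and 8.60 in Mn1null. All Mn1null arrays were above all Mn1wt arrays, and Tfe3 rose by 0.31 ± 0.050 (SE), or 1.24-fold (adjusted p = 0.00188). Other genes of TFEB and TORC1 control numbered 18 tested, of which 6 were higher and 3 lower, and their median difference was 0.010. Among all tested genes, 23.2% were higher and 25.6% lower. Tfec, a further member of this factor family expressed mainly in myeloid cells, fell 2.83-fold, from 11.73 ± 0.047 to 10.23 ± 0.074 (SD, n = 3 each; limma adjusted p = 2.15e-06). The GTPase gene Rheb, an activator of TORC1, fell by 0.38, whereas Lamtor2 and Lamtor4, subunits of the Ragulator complex that docks TORC1 on the lysosome, rose by 0.49 and 0.35.

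The promoters of these genes were read for the E-box CACGTG and its extension TCACGTGA, because TFEB and TFE3 bind such sequences. Each motif reads the same on both strands, and the longer one contains the shorter. RefSeq promoter windows of 300 bases (250 before and 50 after a start, GRCm38.p6) were found for 27 of the 30 genes, and Asah1, Galns and Npc1 are named only. CACGTG was present in at least 1 window of 8 of these 27 genes (29.6%), compared with 8.09% of the 27025 genes in the table. TCACGTGA was present in Cln3, Gla and Mcoln1 (11.1%, against 1.12%). Of the 8 genes with CACGTG, 5 rose (Glb1, Naglu, Gaa, Gla and Mcoln1), Sgsh fell, and Cln3 and Lamp1 did not pass. Among all 27 genes with a window, 16 rose, 3 fell, 7 did not pass and Cd63 was not analysed. The remaining 11 of the 16 genes that rose and had a window held no CACGTG in it, among them Gm2a, Man2b1, Ppt1 and Smpd1. The 250 bases before the start are shown for 4 genes that rose with the motif, for Gm2a, which rose most without it, for Cln3, which holds both forms before 1 of its 2 annotated starts and did not pass, and for Sgsh, which fell. They were chosen with both the letters and the results in view, run 5′ to 3′ along the gene, and carry the longest motif matched at each site in capitals.
Glb1 (chr9:114400828-114401077, plus strand): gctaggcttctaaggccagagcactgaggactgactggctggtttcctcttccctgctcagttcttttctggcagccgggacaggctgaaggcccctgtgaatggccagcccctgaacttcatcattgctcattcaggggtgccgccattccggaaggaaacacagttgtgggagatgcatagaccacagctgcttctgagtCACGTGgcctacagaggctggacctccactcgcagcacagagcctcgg
Naglu (chr11:101069844-101070093, plus strand): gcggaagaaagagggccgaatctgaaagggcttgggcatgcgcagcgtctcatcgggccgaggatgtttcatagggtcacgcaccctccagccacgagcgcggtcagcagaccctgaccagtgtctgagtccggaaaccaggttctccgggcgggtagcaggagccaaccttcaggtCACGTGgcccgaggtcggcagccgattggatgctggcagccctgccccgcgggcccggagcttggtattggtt
Gla (chrX:134601006-134601255, minus strand): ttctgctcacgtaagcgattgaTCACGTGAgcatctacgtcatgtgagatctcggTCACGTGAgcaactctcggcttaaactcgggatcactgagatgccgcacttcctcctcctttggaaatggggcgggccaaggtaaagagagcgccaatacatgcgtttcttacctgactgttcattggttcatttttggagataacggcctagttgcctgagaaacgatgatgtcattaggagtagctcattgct
Mcoln1 (chr8:3500269-3500518, plus strand): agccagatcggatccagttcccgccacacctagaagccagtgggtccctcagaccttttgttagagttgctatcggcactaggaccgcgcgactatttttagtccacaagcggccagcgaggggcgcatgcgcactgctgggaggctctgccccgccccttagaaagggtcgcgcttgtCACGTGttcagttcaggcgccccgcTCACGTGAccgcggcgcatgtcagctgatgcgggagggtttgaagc
Gm2a (chr11:55097735-55097984, plus strand): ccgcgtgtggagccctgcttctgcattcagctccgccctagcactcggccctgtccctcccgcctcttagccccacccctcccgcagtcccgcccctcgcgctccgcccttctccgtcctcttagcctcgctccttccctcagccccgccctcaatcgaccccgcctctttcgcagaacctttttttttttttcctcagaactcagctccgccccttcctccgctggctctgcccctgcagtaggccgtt
Cln3 (chr7:126583237-126583486, minus strand): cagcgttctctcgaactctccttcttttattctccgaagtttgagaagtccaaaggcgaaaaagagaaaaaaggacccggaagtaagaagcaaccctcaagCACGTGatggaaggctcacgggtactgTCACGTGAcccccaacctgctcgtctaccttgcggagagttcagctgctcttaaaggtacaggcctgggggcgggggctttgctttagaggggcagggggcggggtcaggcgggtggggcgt
Sgsh (chr11:119355511-119355760, minus strand): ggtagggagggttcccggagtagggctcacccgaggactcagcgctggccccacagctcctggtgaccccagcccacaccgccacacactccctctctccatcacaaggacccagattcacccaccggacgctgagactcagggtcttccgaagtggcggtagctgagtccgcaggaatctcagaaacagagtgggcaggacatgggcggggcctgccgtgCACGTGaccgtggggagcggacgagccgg
The motif of Glb1 began 48 bases before the start, that of Naglu 73 bases and that of Sgsh 29 bases before it. Gla held 2 copies, 227 and 194 bases before its start. Mcoln1 held 2 copies at 71 and 45 bases, and Cln3 2 copies at 149 and 121 bases. Of the genes with the motif that are not shown, Gaa held 1 copy at 140 bases. Lamp1, which did not pass, held 4 copies, the first at 61 bases. These matches describe letters in the window, and binding was not measured.

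Among genes of sphingolipid breakdown, 4 of 6 rose and 1 fell, beside 23.2% and 25.6% of all tested genes. Gm2a lifts GM2 ganglioside out of membranes for breakdown. It read 9.59, 9.54 and 9.61 on the Mn1wt arrays and 11.52, 11.52 and 11.66 on the Mn1null arrays. The groups lie far apart, and Gm2a rose 3.95-fold, by 1.98 ± 0.057 (SE; limma adjusted p = 7.25e-07). A second probe set rose by 2.25, and a dim one near the filter level differed by 0.047 (adjusted p = 0.660). Smpd1, acid sphingomyelinase, read 8.91, 8.97 and 9.01 in Mn1wt and 10.10, 10.15 and 10.14 in Mn1null. It rose 2.25-fold, by 1.17 ± 0.049, without overlap (adjusted p = 3.43e-06), although its dimmer probe set gave 0.17 (adjusted p = 0.184). Asah1, acid ceramidase, rose by 0.43 from 10.60 ± 0.030 to 11.02 ± 0.029 (SD, n = 3 each), and Gla, alpha-galactosidase A, by 0.29 from 10.10 ± 0.086 to 10.39 ± 0.052. A second tested probe set of Gla gave 0.20 (adjusted p = 0.104).

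Hexa and Psap, which act in the same ganglioside and sphingolipid steps, did not follow Gm2a. Hexa, the alpha subunit of hexosaminidase A, had means of 11.86 ± 0.033 and 11.78 ± 0.049, and its difference of -0.084 did not pass (limma adjusted p = 0.197) although the 3 Mn1null values were the lowest. Psap read 10.62, 10.77 and 10.57 in Mn1wt and 10.20, 10.17 and 10.20 in Mn1null. All Mn1null arrays were lower, and Psap fell by 0.46 ± 0.061 on the log2 scale (SE; adjusted p = 7.12e-04), with a fall of 0.45 at its other probe set.

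The glycosidases of glycoproteins and glycogen rose, except for the sialidase. Glb1, the beta-galactosidase of lysosomes, read 9.39, 9.28 and 9.42 on the Mn1wt arrays and 11.06, 11.05 and 11.09 on the Mn1null arrays. Every Mn1null value was above every Mn1wt value, and the rise was 3.26-fold, or 1.70 ± 0.052 (SE; limma adjusted p = 9.71e-07). Man2b1, the lysosomal alpha-mannosidase, read 10.65, 10.68 and 10.68 in Mn1wt and 12.02, 12.02 and 12.14 in Mn1null. It rose 2.62-fold, by 1.39 ± 0.051 (adjusted p = 1.97e-06), and by 0.32 at a dimmer probe set. Gaa, the acid alpha-glucosidase that degrades glycogen, rose by 0.71 from 9.42 ± 0.036 to 10.13 ± 0.040 (SD, n = 3 each), and by 0.97 at its other probe set. Neu1, the sialidase that acts in a complex with beta-galactosidase, read 8.57 ± 0.075 and 8.65 ± 0.044, and did not pass (difference 0.085, 95% interval -0.048 to 0.22, adjusted p = 0.260).

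Of 7 enzymes of glycosaminoglycan breakdown, 5 rose and 1 fell, beside 23.2% and 25.6% of all tested genes. Naglu, the alpha-N-acetylglucosaminidase of heparan sulfate breakdown, read 8.25, 8.08 and 8.27 in Mn1wt and 9.29, 9.13 and 9.23 in Mn1null. The groups did not overlap, and Naglu rose 2.01-fold, by 1.01 ± 0.070 (SE; limma adjusted p = 3.47e-05). The sulfatases Arsb and Galns rose by 0.50 and 0.42, beta-glucuronidase Gusb by 0.34 and alpha-iduronidase Idua by 0.29. Idua had the largest spread of these, with 7.81 ± 0.088 and 8.10 ± 0.11 (SD, n = 3 each; adjusted p = 0.0139), and rose by 0.53 at its other probe set. Galns had no other probe set above the filter level, and averaging its probe sets gave a difference of 0.20 (adjusted p = 0.0712).

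Sgsh, the sulfamidase that also acts on heparan sulfate, read 6.18, 6.03 and 6.08 in Mn1wt and 5.76, 5.76 and 5.60 in Mn1null. All Mn1null values were lower, and Sgsh fell by 0.39 ± 0.067 on the log2 scale (SE; limma adjusted p = 0.00257). Its other probe set gave 0.051 (adjusted p = 0.711), and averaging both gave -0.17 (adjusted p = 0.0676). Ids, iduronate sulfatase, had means of 7.94 ± 0.076 and 7.84 ± 0.031 and did not pass (-0.11, adjusted p = 0.149).

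Ppt1 and Tpp1, the enzymes of this list whose loss causes neuronal ceroid lipofuscinosis, both rose. Ppt1, which removes palmitate from proteins, read 9.33, 9.49 and 9.30 on the Mn1wt arrays and 10.54, 10.56 and 10.57 on the Mn1null arrays. It rose 2.27-fold without overlap, by 1.18 ± 0.061 (SE; limma adjusted p = 8.89e-06), and a second probe set of similar signal rose by 1.14. Its 3 dim probe sets gave 0.11, 0.033 and -0.059, which did not pass. Tpp1, a tripeptidyl peptidase, read 10.92, 10.82 and 10.91 in Mn1wt and 11.68, 11.71 and 11.68 in Mn1null. The groups were apart, with a rise of 1.75-fold, or 0.81 ± 0.047 (adjusted p = 1.52e-05), and of 1.40 on the log2 scale at its other probe set.

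The pair of proteins that carry cholesterol out of the lysosome rose as well. Npc2, the soluble carrier, read 12.17, 12.18 and 12.17 in Mn1wt and 12.93, 12.94 and 12.96 in Mn1null. The replicates were nearly identical, and Npc2 rose 1.71-fold, by 0.77 ± 0.041 (SE; limma adjusted p = 1.02e-05), with rises of 0.89 and 0.76 at its other tested probe sets. Npc1, the membrane transporter that receives cholesterol from Npc2, rose by 0.48 ± 0.112 (adjusted p = 0.0104). It read 7.24, 7.11 and 7.57 in Mn1wt and 7.78, 7.81 and 7.76 in Mn1null, so 1 Mn1wt array came close to the Mn1null values.

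Of 6 membrane proteins tested, 2 rose and 1 fell, beside 23.2% and 25.6% of all tested genes. Their median difference of 0.034 was the lowest of the 7 roles. The 21 further lysosomal membrane proteins described below had a median of 0.32, with 13 higher and 4 lower. Scarb2, an integral protein of the lysosomal membrane, read 9.55, 9.48 and 9.62 in Mn1wt and 9.17, 9.005 and 9.22 in Mn1null. Scarb2 fell without overlap by 0.42 ± 0.072 on the log2 scale (SE; limma adjusted p = 0.00249), and by 0.48 at its other probe set. Mcoln1, the lysosomal cation channel TRPML1, rose by 0.26 from 8.34 ± 0.064 to 8.60 ± 0.021 (SD, n = 3 each), and by 0.42 and 0.37 at its other probe sets.

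Lamp2 and Lamp1, the most abundant glycoproteins of the lysosomal membrane, had close levels in both groups. Lamp2 rose by 0.18 from 11.70 ± 0.028 to 11.88 ± 0.039 (SD, n = 3 each; limma adjusted p = 0.0159). Leaving out Mn1wt replicate 1 ended that call (0.16, adjusted p = 0.0567), as did leaving out Mn1null replicate 2 (0.15, adjusted p = 0.0517), while its other probe sets rose by 0.19, 0.45 and 0.64. Lamp1 had means of 11.73 ± 0.041 and 11.78 ± 0.053 and did not pass (0.051, 95% interval -0.067 to 0.17, adjusted p = 0.448). Cln3, a membrane protein mutated in juvenile ceroid lipofuscinosis, differed by 0.016 (adjusted p = 0.847). Cd68, a lysosomal glycoprotein abundant in macrophages, differed by -0.054 (95% interval -0.30 to 0.19, adjusted p = 0.709), with 8.34, 8.54 and 8.77 on the Mn1wt arrays and 8.53, 8.49 and 8.46 on the Mn1null arrays.

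**Figure D2:**
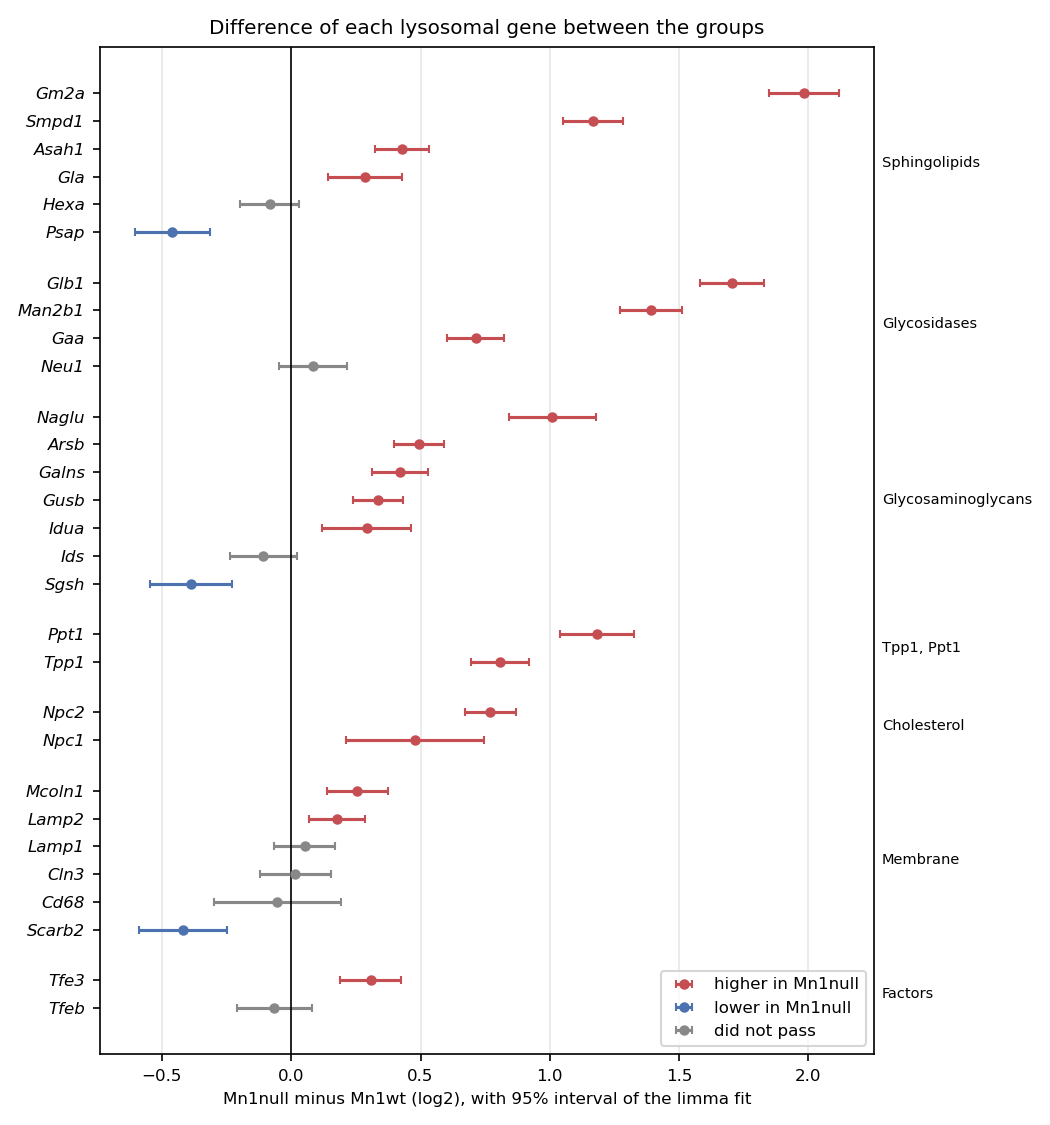
The difference of Mn1null minus Mn1wt (log2, horizontal axis) with the 95% interval of the limma fit (bars) for each of 29 lysosomal genes (vertical axis, grouped by role), 3 arrays a group. Differences run from -0.46 for Psap to 1.98 for Gm2a, and the intervals of Neu1, Hexa, Ids, Lamp1, Cln3, Cd68 and Tfeb include 0.

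The 29 genes had 65 probe sets in all, and 20 genes had more than 1. Among the 19 genes that rose, 13 had at least 1 further probe set above the filter level, and for 11 of those another probe set rose as well. Of these 22 further probe sets, 15 rose and 7 did not pass when limma was fitted over all probe sets that name 1 gene. They belong to genes already called higher, and the share of all probe sets that rose in that fit is not given here. The 15 had mean log2 signals between 4.59 and 12.22, and the 7 between 4.22 and 7.23. Gla and Smpd1 were the 2 genes with no further probe set that rose.

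**Figure D3:**
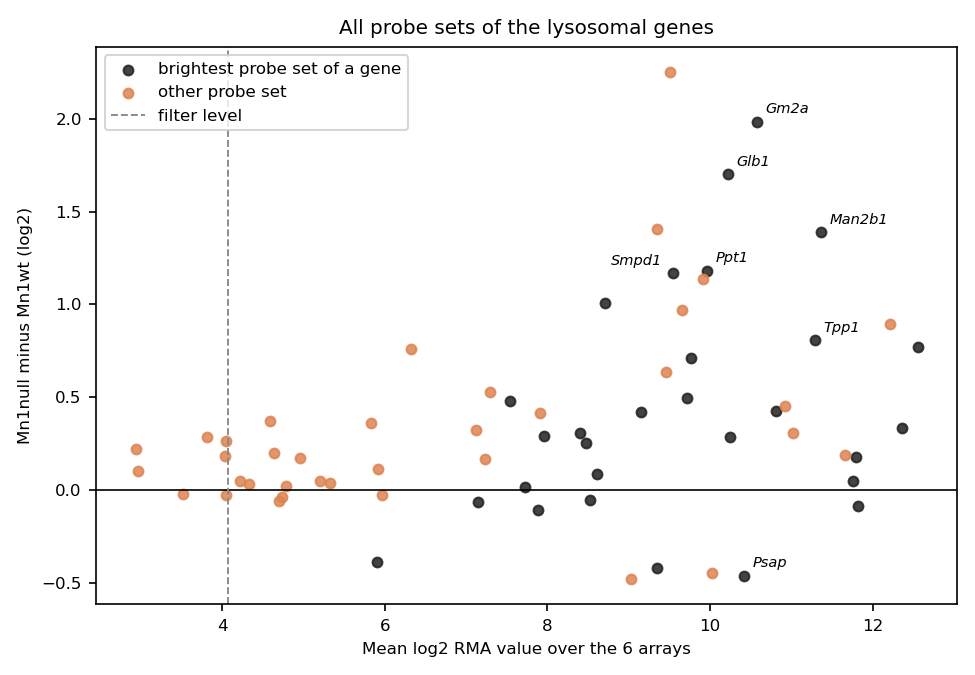
The difference of Mn1null minus Mn1wt (log2, vertical axis) against the mean log2 RMA value over the 6 arrays (horizontal axis) for all 65 probe sets of the 29 lysosomal genes, with the probe set used for each gene in black and the others in orange. The dashed line is the filter level of 4.07, and most probe sets of low signal lie nearer to 0 than the bright ones, while those of Gm2a and Glb1 lie highest among the probe sets used.

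Genes around the lysosome were read from lists that hold none of the 30 genes. Beside the counts of these lists, 23.2% of all tested genes were higher and 25.6% lower. Of 18 further soluble hydrolases and cofactors tested, 9 were higher and 3 lower, and the median difference was 0.13. Fuca1, the alpha-fucosidase, rose by 1.03 ± 0.047 (SE; limma adjusted p = 5.24e-06), and Aga, which cleaves the asparagine link of glycoproteins, by 0.63. The asparaginyl endopeptidase Lgmn fell by 2.04 ± 0.251 (adjusted p = 5.00e-04), from 5.64 ± 0.34 to 3.60 ± 0.45 (SD, n = 3 each). Its Mn1null mean lies under the filter level, so the size of the fall may be compressed, which was not tested. Scpep1, a serine carboxypeptidase, fell by 0.61.

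Of 21 further membrane proteins tested, 13 were higher and 4 lower, and the median was 0.32. Sidt2, a transporter of nucleic acids, rose by 0.53, and Laptm4a by 0.51. Laptm4b fell by 2.30 ± 0.070 (SE; limma adjusted p = 9.71e-07), from 10.18 ± 0.062 to 7.88 ± 0.11 (SD, n = 3 each), which is the widest difference in these lists. Slc11a1, the phagosomal metal transporter NRAMP1, fell by 0.43. The count of falls depended on single arrays, with 2 without Mn1wt replicate 1 or without Mn1null replicate 3, and 1 without Mn1null replicate 1.

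The V-ATPase is the proton pump that acidifies the lysosome. Of 16 subunit and accessory genes tested, 10 were higher and 4 lower, and the median was 0.27. Atp6v0a1 rose by 1.76 ± 0.060 (SE; limma adjusted p = 1.51e-06), from 6.78 ± 0.046 to 8.54 ± 0.088 (SD, n = 3 each), while Tcirg1, which encodes another isoform of the same subunit, fell by 0.63 ± 0.069 from 9.72 ± 0.093 to 9.09 ± 0.085 (adjusted p = 2.70e-04). The d1 subunit gene Atp6v0d1 rose by 0.98, and Atp6v1c1 of the cytoplasmic sector fell by 0.30. Atp6v0d2 lay under the filter level.

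Of 23 enzyme targeting and organelle biogenesis genes tested, 9 were higher and 4 lower, against 23.2% and 25.6% of all tested genes. Their median difference was 0.0064. Gnptg, a subunit of the phosphotransferase that makes the mannose 6-phosphate tag, rose by 0.86 ± 0.064 (SE; limma adjusted p = 4.65e-05), whereas Nagpa, the enzyme that uncovers the tag, fell by 0.56 ± 0.051 (adjusted p = 1.21e-04). Hps1, which acts in the biogenesis of lysosome-related organelles, rose by 0.51, and Lyst, the gene of Chediak-Higashi syndrome, fell by 0.58.

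Of 20 autophagy genes, 11 were higher and 2 lower, and the median was 0.30. Wipi1, which binds phosphoinositides on the forming autophagosome, rose by 0.94 ± 0.050 (SE; limma adjusted p = 9.83e-06), and Rb1cc1, a subunit of the ULK1 complex, by 0.70. The 2 that fell, Atg4b and Atg3, which process and conjugate LC3, did so by 0.20 and 0.14. Without Mn1null replicate 2 or 3, 1 gene of the list passed downward. Without Mn1wt replicate 2 or 3 or Mn1null replicate 1, limma called 0 downward, with 2 at an unadjusted p under 0.05 in each case.

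**Figure D4:**
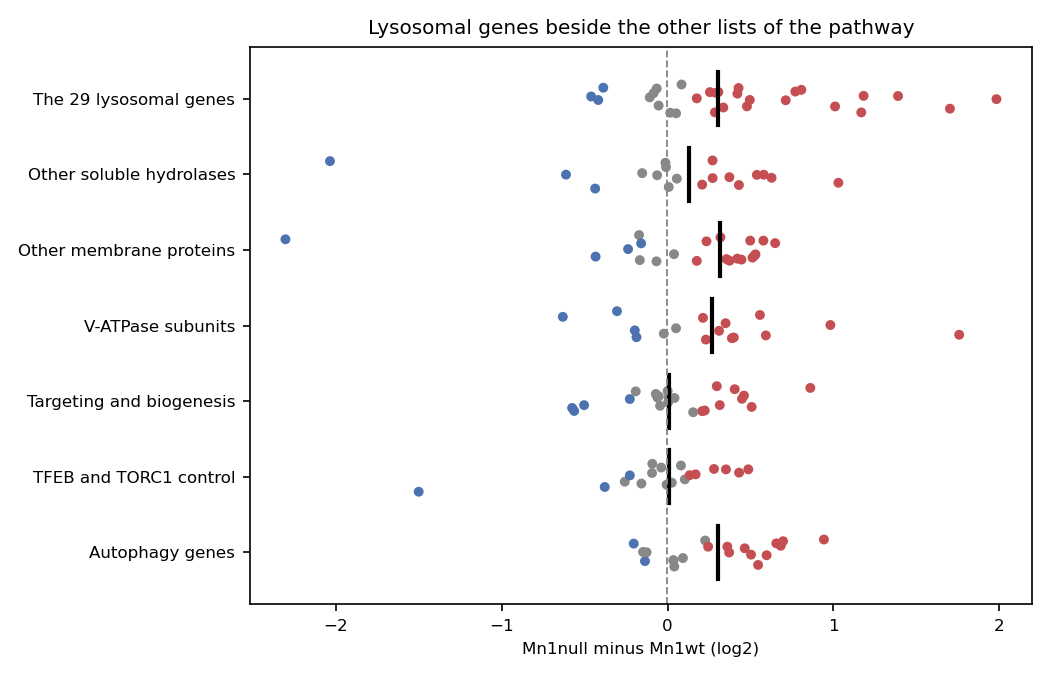
The difference of Mn1null minus Mn1wt (log2, horizontal axis) for each tested gene of the 29 lysosomal genes and of 6 other lists (vertical axis, points spread vertically within a list), with red for genes that rose, blue for genes that fell and grey for genes that did not pass. Black bars are list medians, from 0.0064 for targeting and biogenesis to 0.32 for other membrane proteins, and the dashed line is the median of all genes tested.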

How the data were processed

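RNA of 6 samples was extracted with Trizol, and 3 microgram each were labelled with biotin for Affymetrix mouse arrays, per the labels' protocols. The authors deposited log2 signals per probe set, made with RMA (background correction, quantile normalization, probe summary), per the submitters' processing notes; overall differences in RNA amount are removed and low signals are compressed. The sources used here do not give its version or any filters. Of 45101 probe sets, 64 controls were set aside and 34945 named 1 gene. The brightest probe set represented a gene, and genes with a mean below the 30th percentile of the non-control probe sets were left out. limma 3.58.1 (lmFit, eBayes; R 4.3.3) tested Mn1null minus Mn1wt (n = 3 each), 2-sided, and p-values were adjusted by Benjamini-Hochberg over 14680 genes. The steps were tested on simulated data. Values on every array are given for the 8 largest rises, all falls, Tfeb and Tfe3, plus Npc1 and Cd68, chosen after their values were seen, some genes of the lists are not reported here, and up to 2 genes per direction are named from each other list by smallest p. The members and lists were chosen with earlier results of these data known. Alternatives covered the probe set, filter, normalization, variance prior, array weights, replicate block, threshold and each array left out, and each further probe set was added after seeing the data.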

Additional observations from a re-analysis of the deposited data

How the results depend on the processing

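The 19 rises and 3 falls were the same counts under 8 alternatives, and each of the 29 genes kept its direction and side of the threshold. These were no filter, a filter at the 50th percentile, array weights, quantile normalization and robust eBayes with an intensity trend. The others were median centring, the replicate number as a block, and leaving out probe sets whose names hold _s_ or _x_. Same-numbered samples deviated together at correlations of -0.039, 0.11 and 0.080, so the numbers were not taken as pairs, and the replicate block gave 6943 called genes instead of 7170. With the mean of probe sets 18 rose and 2 fell, Galns and Sgsh lost their calls, and Ids (0.093) and Cln3 (-0.0056) changed sign without passing. At a threshold of 0.01, 16 rose, and Idua, Npc1 and Lamp2 lost theirs. Without single arrays 18 to 19 rose and 3 fell, and the values of Cd68 (-0.16 to 0.055) and Cln3 (-0.027 to 0.063) spanned 0. The median difference was 0.34 without probe sets whose names hold _s_ or _x_, 0.33 with quantile normalization and 0.29 to 0.34 without single arrays. Among further probe sets, 1 each of Arsb (-0.036), Cln3 (-0.027), Ids (0.036), Ppt1 (-0.059) and Sgsh (0.051) had the other sign and did not pass. Falls among further membrane proteins numbered 1 at a threshold of 0.01 and 1 to 3 without single arrays. Falls among autophagy genes numbered 1 with no filter, quantile normalization, median centring or the replicate block, 0 to 2 without single arrays, and in limma 0 with the mean of probe sets (1 at an unadjusted p under 0.05) and 0 at a threshold of 0.01 (3 at an unadjusted p under 0.05). The causes of these changes were not tested. Dim probe sets limit what can be read, since RMA compresses differences near the floor. Whether signal level bears on the probe sets that did not pass was not tested.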

Other observations

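Npc1 and Cd68 varied more between Mn1wt arrays than the other lysosomal genes. Their SDs over the 3 Mn1wt arrays were 0.24 and 0.21, against a median of 0.055 over the 29 genes, and both read highest on Mn1wt replicate 3. On the Mn1null arrays the same genes had SDs of 0.028 and 0.036, against a median of 0.040.

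Enzymes and the proteins that assist them did not move as units. Gm2a rose by 1.98 while Hexa, the enzyme subunit it serves, differed by -0.084, and Psap fell by 0.46 while Smpd1, Asah1 and Gla, which act on sphingolipids, rose by 1.17, 0.43 and 0.29. Within heparan sulfate breakdown Naglu rose by 1.01, Idua by 0.29 and Gusb by 0.34, and Sgsh fell by 0.39 at the probe set used. These pairs were set side by side after their values were seen, and the differences between them were not tested.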
